A study of Mus musculus with 11 samples.

Results

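The urothelium of the fetal mouse was profiled in 3 of the 11 arrays of the series, and those 3 arrays, chosen by their label alone, are described here across 18193 named genes. The other 8 arrays came from cortical collecting duct (2), early proximal tubule (3) and ureteral smooth muscle (3). Every tissue was wild-type CD-1, an outbred mouse stock, at E15.5 (Theiler stage 23), with the sex not known. The 4 compartments were cut out of frozen sections by laser capture microdissection, and each array measured RNA pooled from about 50 sections of 5 kidneys after 2 rounds of amplification. The labels name urothelium without saying from which part of the urinary tract it was captured, and they do not state whether pools shared kidneys or fetuses, so each p-value speaks only of the variation among pools, part of which can be technical. The series belongs to an atlas of gene expression in the developing urogenital tract, and the question asked of it here is which genes set the urothelium apart.

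The urothelium is the stratified lining of the renal pelvis, ureter and bladder. Its superficial umbrella cells carry plaques of uroplakins, membrane proteins that make the surface almost impermeable to urine, and its basal cells express the transcription factor Trp63 and anchor the layer to the matrix beneath. In the ureter it arises from the same ureteric bud as the collecting ducts, and it signals to the surrounding mesenchyme, which forms the smooth muscle coat.

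All values are log2(signal + 55), called the log2 signal below, where signal is the brightness of an Affymetrix probe set, a group of short probes for one transcript. Brightness depends on the probes as well as on the RNA, so levels of different genes cannot be set against each other, and for a bulk sample fewer cells of a type and less RNA per cell cannot be told apart. A difference is the mean of the 3 urothelium arrays minus the mean of the other 3 compartments, each compartment weighing the same, given with its standard error (SE, 3 against 8 arrays) from 1 limma fit over all arrays. Genes are said to be called where the p adjusted by Benjamini-Hochberg over the 13573 genes tested was under 0.05 and the difference was at least 1 in size. To be tested, a gene needed 2 or more arrays with a signal above the median of that array. The urothelium arrays alone could meet this, so a list's tested members can include genes kept because they were high there.

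The 4 markers of the tissue were each higher in all 3 urothelium arrays than in any other array. Upk3a, a uroplakin (probe set 1449104_at), had log2 signals of 13.92, 13.24 and 12.36 in urothelium replicates 1 to 3. The other 8 arrays had a lowest value of 6.65, a median of 8.23 and a highest of 8.75, and the difference was 5.21 ± 0.45 (adjusted p = 7.67e-05). The groups were thus separated by more than 3 log2 units even at their closest arrays. Upk1b, the tetraspanin uroplakin (1457065_at), stood at 14.26, 13.81 and 11.54 against 6.40, 8.82 and 9.33 (lowest, median and highest of the 8), a difference of 4.79 ± 0.59 (adjusted p = 0.0011). Krt19, a keratin of simple and transitional epithelia (1417156_at), stood at 14.07, 14.22 and 12.77 against 7.52, 8.55 and 10.19, a difference of 4.84 ± 0.39 (adjusted p = 7.67e-05). In all 3 of these genes replicate 3 was the lowest urothelium array. Trp63, the basal cell factor (1418158_at), had 14.54, 13.54 and 12.44 in urothelium, again lowest in replicate 3, and 6.15, 8.02 and 11.24 in the rest. Its difference was 5.18 ± 0.84 (adjusted p = 0.00594), and the array nearest to urothelium was muscle replicate 1. These 4 markers were thus high in all 3 arrays, with replicate 3 carrying less of each, and they do not measure how much other tissue a pool held.

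Of the 3 urothelium arrays, replicate 3 also lay nearest to the arrays of the other compartments. Pearson's r across the tested genes, which are no independent replicates of each other, was 0.916 between urothelium replicates 1 and 3, 0.885 between 1 and 2, and 0.884 between 2 and 3. With the duct arrays replicates 1, 2 and 3 correlated at 0.864 to 0.887, 0.831 to 0.851 and 0.880 to 0.909. With muscle these ranges were 0.823 to 0.850, 0.794 to 0.800 and 0.849 to 0.854, and with proximal tubule 0.784 to 0.800, 0.748 to 0.779 and 0.807 to 0.830. Replicate 2 was the farthest from all 3. The 3' to 5' ratio of the Gapdh control, which grows when RNA is degraded or short after amplification, was 16.7, 55.3 and 29.7 in urothelium replicates 1 to 3, while the 8 arrays from elsewhere ranged from 6.79 to 25.9. For actin it was 6.66, 5.43 and 5.16 against 5.07 to 13.5. The part of these ratios in the results was not tested. A date-like part of the labels, whose meaning is not stated, puts urothelium replicate 1 with muscle replicate 1 and urothelium replicates 2 and 3 with muscle replicate 3, and no duct or tubule array shares either of these label batches.

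Against the mean of the other 3 compartments, more genes were called higher in urothelium than lower. A gene high in only 1 other compartment shows just part of that difference against the mean, and against proximal tubule alone more genes were lower. Of the 13573 genes tested, 321 were called (2.36%), 225 of them higher (1.66%) and 96 lower (0.707%), while the median difference over all genes was 0.01. The median size was 2.21 among the higher genes and -1.89 among the lower. Among the higher genes the nearest compartment, the highest of the other 3, was collecting duct for 139 (61.8%), muscle for 57 (25.3%) and proximal tubule for 29 (12.9%). That level can lie above urothelium, as the duct means of Gata3 and Foxq1 did. Of the same 225 genes, 187 were also called higher against proximal tubule alone and 183 against muscle alone, but 18 against collecting duct. Directly compared, urothelium and duct differed in 34 genes (0.25%), of which 22 were higher in urothelium (0.162%) and 12 lower (0.0884%). Against proximal tubule 1558 genes were called (11.5%), 685 higher (5.05%) and 873 lower (6.43%), and against muscle 1083 (7.98%), 687 higher (5.06%) and 396 lower (2.92%). These 3 comparisons share the urothelium arrays, and the duct comparison has 1 array fewer than the others, so the counts do not measure distance alone.

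The number called rested on single arrays and on how label batch was treated. Without urothelium replicate 3 the count was 399, without replicate 2 it was 98 and without replicate 1 it was 128, and 253, 91 and 112 of the 321 genes were then still called. Without collecting duct replicate 2 the count was 201. With label batch as a fixed block 0 genes were called by limma (smallest adjusted p = 0.106, with 919 genes at an unadjusted p under 0.05 against 2176 without the block). In that fit all 321 genes kept their sign and their median size was 2.12 in both fits, while the median SE over all genes was 0.67 in place of 0.39. Each batch with urothelium holds muscle but neither duct nor tubule, so the block compares urothelium with those 2 only through the muscle arrays. With batch as a random block 306 genes were called. Set against the muscle array of the same batch, 219 of the 225 higher genes were higher in both batches, and 69 of the 96 lower genes were lower in both. For the 120 higher and 29 lower genes whose urothelium arrays did not overlap the other 8, this direction is fixed by the lack of overlap.

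**Figure D1:**
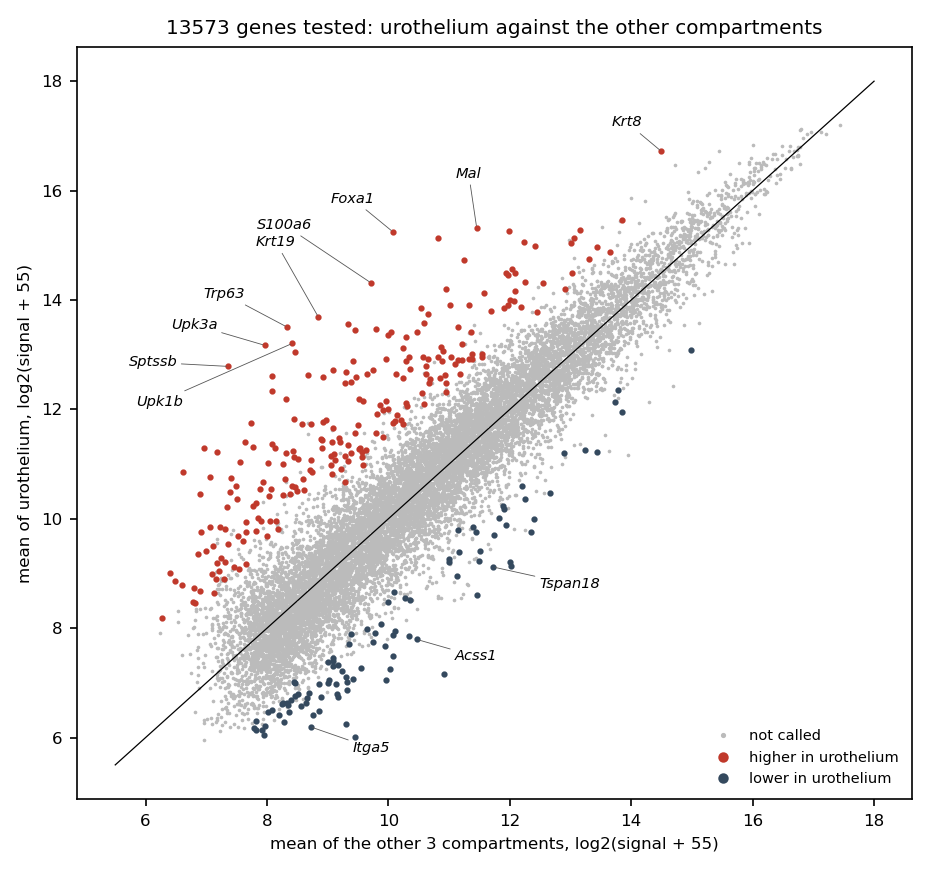
Mean log2(signal + 55) of the 3 urothelium arrays (vertical axis) against the mean over the 3 other compartments (horizontal axis) for the 13573 genes tested, with the line of equality. Red points are the 225 genes called higher and dark points the 96 called lower, and Krt8 is the called gene with the brightest urothelium signal (16.72 against 14.50).

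The genes with the largest differences from the mean of the other compartments included uroplakins, basal and luminal transcription factors, sphingolipid enzymes and calcium-binding proteins. The 25 called genes with the largest difference among those whose urothelium arrays did not overlap the other 8 had differences of 3.48 to 5.42 and adjusted p from 6.22e-05 to 0.00594. Of 296 genes with all 3 urothelium arrays above the other 8 (2.18% of the genes tested), 120 were called (0.884%). First was Sptssb, a small subunit of serine palmitoyltransferase, the enzyme that begins sphingolipid synthesis, with 12.61, 13.41 and 12.34 in urothelium and 6.01 to 9.77 elsewhere (5.42 ± 0.47, adjusted p = 7.67e-05). Other sphingolipid enzymes in the group were Cers3, a ceramide synthase of very long chains (4.57 ± 0.44), and Sptlc3, another subunit of the palmitoyltransferase (3.55 ± 0.37). Cers3 was intermediate in collecting duct at 11.33, against 13.04 in urothelium, 6.39 in proximal tubule and 7.67 in muscle. The rest of a 23-gene ceramide and sphingolipid list, which does not include Sptssb, did not move with them. Cers3 and Sptlc3 were the 2 called of 21 members tested and the list's median difference was -0.26, with Cers4 at -1.35 ± 0.39 (adjusted p = 0.0909) and the ceramidase Acer2 at 1.03 ± 0.29 (adjusted p = 0.0905).

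Foxa1, a forkhead factor that opens chromatin in endodermal and urothelial cells, had log2 signals of 15.31, 16.01 and 14.42 in urothelium. It stood at 13.06 and 13.41 in collecting duct, at 10.39 to 11.74 in muscle and at 6.03 to 6.08 in proximal tubule. Urothelium was the highest compartment, and the duct came next with a difference of 2.01 ± 0.53 that was not called (adjusted p = 0.142). Pparg, the nuclear receptor that drives urothelial differentiation, had 11.87, 12.87 and 10.48 against a highest value of 9.93 elsewhere (4.0 ± 0.62, adjusted p = 0.00435). Msx2, a homeobox factor, and Vgll3, a partner of TEAD factors, differed by 3.71 ± 0.45 and 3.87 ± 0.41. The immediate early factor Fos had 11.41, 12.64 and 9.80 in urothelium and 6.29 to 8.17 in the other arrays (4.32 ± 0.53, adjusted p = 0.00106).

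S100a6, a calcium-binding protein, differed by 4.60 ± 0.40 and Anxa8, an annexin, by 4.26 ± 0.49. Among the membrane proteins, Fxyd3, a regulator of the sodium pump, differed by 4.53 ± 0.64, and the tetraspanin Tspan8 by 4.32 ± 0.61. Tspan8 was nearly as high in the duct (14.67) as in urothelium (15.46, 15.25 and 14.69), and replicate 3 lay at the duct's level. Vesicle traffic was represented by Rab27b, a GTPase of secretory vesicles (4.24 ± 0.60), and Arl14, an Arf-like GTPase (4.24 ± 0.40). Ctse, the aspartic protease cathepsin E, differed by 4.0 ± 0.51. Junction proteins were the claudin Cldn23 (3.95 ± 0.37), the atypical cadherin Fat2 (3.55 ± 0.34), Perp, a desmosome-associated target of Trp63 (3.48 ± 0.53), and Pof1b, an actin-binding protein (3.77 ± 0.54). Perp was high in proximal tubule as well, at 12.96 against 14.72 in urothelium, so its difference from tubule alone was 1.77 (adjusted p = 0.0938). Upk3b, another member of the uroplakin family, closed the group at 3.48 ± 0.47, and the adaptor Sh2d4a stood at 3.68 ± 0.50.

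Each of these 25 genes stayed called with any 1 of the 11 arrays left out, the largest adjusted p being 0.0458 (Trp63 without urothelium replicate 1). With label batch as a fixed block none was called by limma (adjusted p from 0.106 to 0.474), although the differences stayed of similar size, for example 5.41 for Upk3a and 5.02 for Krt19. Tspan8 was the exception in size, at 2.01 with the block. Where a gene had further probe sets, most pointed the same way: of 34 further probe sets past the filter, over the higher and lower leading genes and markers together, 31 had the same sign and 24 a size of at least 1. The exceptions in sign among these 34 were all in lower genes described below (Itga5, Pde1c and Dnm1). For higher genes the urothelium arrays alone can carry a probe set past the filter, which favours the same sign. Probe sets of higher genes below the filter differed by -0.28 (Ctse), -0.17 (Vgll3), 0.23 and 0.18 (Trp63), 0.60 (Sptlc3) and 0.81 (Msx2).

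**Figure D2:**
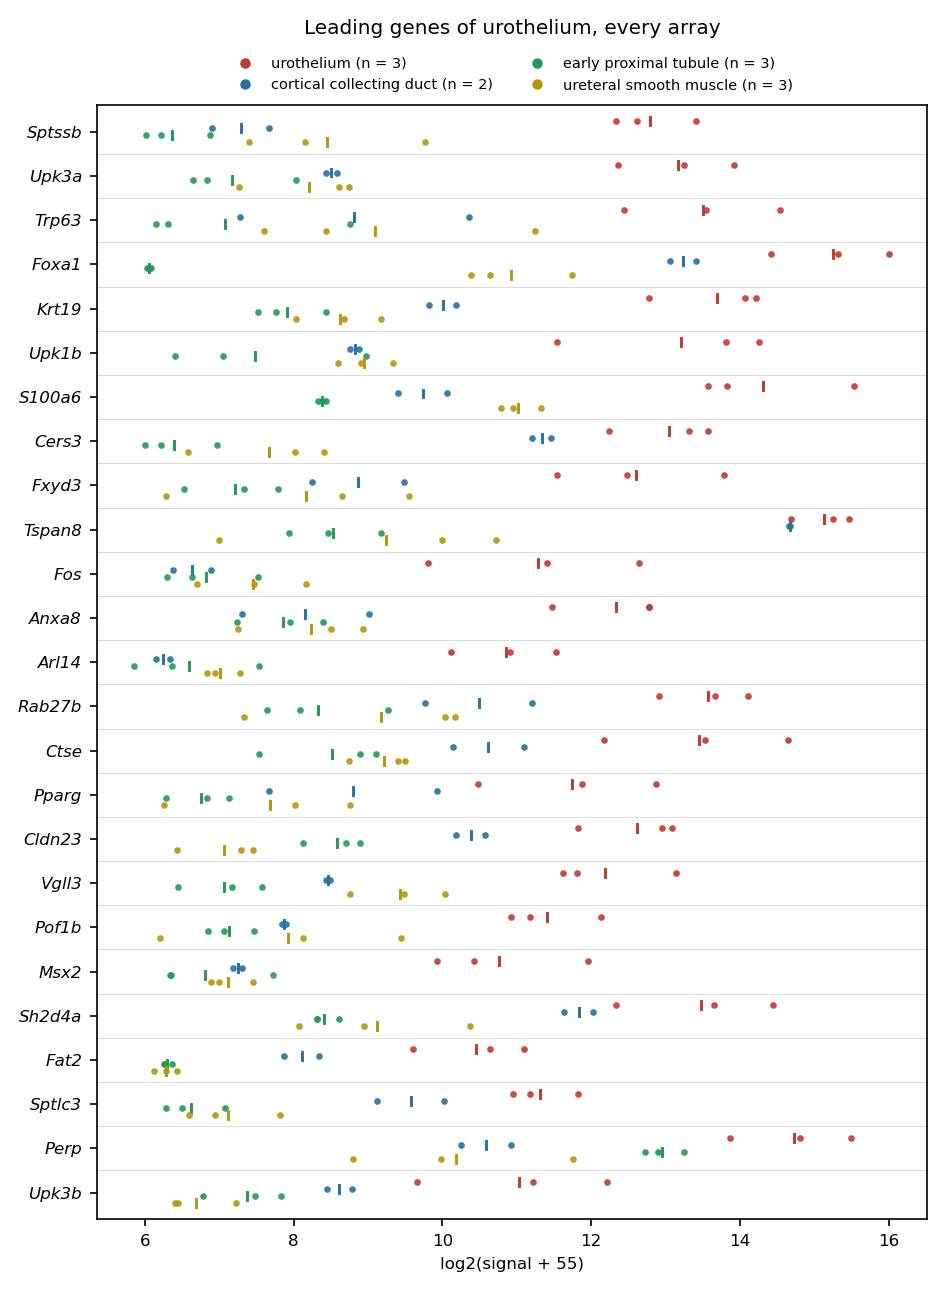
Log2(signal + 55) of the 25 leading urothelium genes in every array (points, coloured by compartment) with the compartment mean (vertical tick). In each row the 3 urothelium arrays lie to the right of all 8 others, most widely for Upk3a (12.36 against 8.75 at the closest arrays) and most narrowly for Tspan8 (14.69 against 14.68).

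A total of 13 genes (0.0958%) were called higher in urothelium against each of the other compartments separately. In order of the difference from the nearest compartment these were Upk3a (4.67), Sptssb (4.34), Upk1b (4.26), Anxa8 (4.11), Arl14 (3.84), Fos (3.84), Krt19 (3.69), Msx2 (3.52), S100a6 (3.29), Chst5 (3.04), Vgll3 (2.76), Ldoc1 (2.44) and Prkcb (2.09), with adjusted p of at most 0.0478 in any pair. Ldoc1 and Prkcb, a protein kinase C, were picked out after their values were seen. Chst5 encodes a sulfotransferase that modifies glycans, and it had 10.61, 11.20 and 10.40 in urothelium against 6.58 to 8.39 in the other arrays. Trp63 and Foxa1 were not called against duct (adjusted p = 0.107 and 0.142), where collecting duct replicate 2 reached 10.36 for Trp63 and both duct arrays were above 13 for Foxa1. The count was 43 without urothelium replicate 3, 4 without replicate 2, 5 without replicate 1 and 0 without either of the collecting duct arrays.

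The promoters of these genes are shown because the genes were high together and because forkhead, GATA and grainyhead factors were called higher against the mean of the other compartments. None of the factors tested was called against collecting duct alone, where 0.25% of all genes tested were called. The duct means of Gata3 and Foxq1 were above those of urothelium. RefSeq promoters (GRCm38.p6) were at hand for 11 of the 13, the exceptions being Upk1b and Krt19, and the 250 bases before the start site were searched on both strands. The GATA letters AGATAA or TGATAA were present in 3 of 11, against 16.6% of 32851 promoters of the same length. The forkhead letters TGTTTAC or TATTTAC were present in 1 of 11, against 5.76%, and the grainyhead letters AACNNGTT in 0 of 11, against 3.64%. The promoters with a match are printed 5′ to 3′ on the gene's strand with the match in capitals: Upk3a at chr15:85016891-85017140 (plus strand, GATA letters read on the opposite strand), Arl14 at chr3:69222169-69222418 (plus), Vgll3 at chr16:65814939-65815188 (plus) and Anxa8 at chr14:34085729-34085978 (plus, forkhead).
Upk3a: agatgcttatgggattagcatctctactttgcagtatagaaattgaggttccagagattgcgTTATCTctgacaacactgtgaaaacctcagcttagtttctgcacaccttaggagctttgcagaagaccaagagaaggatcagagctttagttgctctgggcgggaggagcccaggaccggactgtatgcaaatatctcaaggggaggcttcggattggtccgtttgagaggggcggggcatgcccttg
Arl14: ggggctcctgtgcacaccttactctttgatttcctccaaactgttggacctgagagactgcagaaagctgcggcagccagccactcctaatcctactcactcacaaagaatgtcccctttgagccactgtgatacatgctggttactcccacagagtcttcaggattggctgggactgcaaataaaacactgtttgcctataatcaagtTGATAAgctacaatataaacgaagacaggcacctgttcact
Vgll3: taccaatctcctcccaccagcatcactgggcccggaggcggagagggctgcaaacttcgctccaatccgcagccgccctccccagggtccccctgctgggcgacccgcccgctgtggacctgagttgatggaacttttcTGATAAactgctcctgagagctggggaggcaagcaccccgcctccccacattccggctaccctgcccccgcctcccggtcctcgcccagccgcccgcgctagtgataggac
Anxa8: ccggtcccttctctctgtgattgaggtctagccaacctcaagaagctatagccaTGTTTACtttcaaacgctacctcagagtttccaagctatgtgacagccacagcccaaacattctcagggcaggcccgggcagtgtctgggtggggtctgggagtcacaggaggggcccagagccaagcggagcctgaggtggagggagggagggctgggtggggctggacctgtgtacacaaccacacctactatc
The GATA match lies 188 bases before the start site in Upk3a, 41 in Arl14 and 111 in Vgll3, and the forkhead match 196 bases before that of Anxa8. A match describes letters in this window and shows no binding.

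Most tested genes of the umbrella cell surface were called higher. Over all genes tested, 1.66% were called higher and 0.707% lower, the shares to set beside each list count. Of 9 tested members of the uroplakin and umbrella cell list, 7 were called higher and 0 lower, with a median difference of 3.48. Besides Upk3a, Upk1b, Upk3b and Rab27b these were Mal, a protein of apical membrane sorting (3.87 ± 0.41), the serine protease Tmprss2 (2.54 ± 0.50) and Snx31, a sorting nexin of uroplakin endosomes (2.48 ± 0.41). Without urothelium replicate 2, Tmprss2 (adjusted p = 0.128) and Snx31 (0.0521) were not called. Against collecting duct alone 2 of the 9 were called higher by limma, Upk3a and Upk1b (7 at an unadjusted p under 0.05). Of all 13573 genes tested, 0.162% were called higher against duct and 1636 had an unadjusted p under 0.05 in limma. The list's median difference from duct was 2.42, and 0 of the 9 had a higher mean in duct. Upk2, the partner of Upk1a in the plaque, read 9.75, 9.72 and 9.42 against a highest other value of 9.53, a difference of 1.65 ± 0.54 that was not called (adjusted p = 0.143). Krt20, the keratin of fully mature umbrella cells, had 10.92, 10.18 and 8.09 in urothelium, so replicate 3 overlapped the other arrays and its difference of 2.33 ± 0.57 was not called (adjusted p = 0.0517). Upk1a, Psca and Vgll1 did not pass the filter on low signal. Members high only in urothelium could pass it, so the counts and medians of the 9 lean towards higher values.

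The basal and intermediate cell list was less uniform. Of 9 tested members, 3 were called higher (Trp63, Perp and Lamb3, a chain of the basement membrane laminin, 3.10 ± 0.47) and 0 lower, with a median of 1.45. Krt5, the basal keratin, read 9.80, 9.29 and 8.95 in urothelium and 8.21 to 9.43 elsewhere, a difference of 0.56 ± 0.37 (adjusted p = 0.497). The adhesion receptor Cd44 had 11.52, 11.83 and 8.90, and replicate 3 lay below the mean of muscle (11.48). The laminin receptor subunit Itga6 (0.15 ± 0.37) and stratifin, Sfn (1.45 ± 0.44), were also not called, and Krt14, Krt15, Itgb4 and Col17a1 did not pass the filter. In a keratin list 5 of 7 tested members were called higher and 0 lower (median 2.22), namely Krt19, Krt7 (3.37 ± 0.52), Krt18 (3.27 ± 0.42), Krt8 (2.22 ± 0.39) and Krt23 (2.17 ± 0.47), with Krt8 (0.0693) and Krt23 (0.121) not called without urothelium replicate 2. For all 5 the compartment next in level was collecting duct, for example at 11.67 for Krt7, where urothelium had 14.29, 13.39 and 12.55.

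Of 28 tested transcription factors of urothelium and duct, 10 were called higher and 0 lower, with a median of 0.92. After Foxa1 and Pparg came the forkhead factor Foxq1 (3.32 ± 0.52), Gata3 (2.99 ± 0.58), the grainyhead factors Grhl3 (2.69 ± 0.41), Grhl2 (2.59 ± 0.44) and Grhl1 (2.48 ± 0.57), Klf5 (2.57 ± 0.46), the Ets factor Ehf (2.36 ± 0.47) and Id1 (1.69 ± 0.32). Against collecting duct alone 0 of the 28 were called in either direction by limma (10 at an unadjusted p under 0.05), and the list's median difference from duct was 0.09. Over all 13573 genes tested, 34 were called against duct and 1636 had an unadjusted p under 0.05 in limma. Without urothelium replicate 2 the calls of Gata3 (adjusted p = 0.125), Grhl1 (0.184), Grhl2 (0.0531), Klf5 (0.0848), Ehf (0.136) and Id1 (0.0994) were lost. Of the 28, 13 had a higher mean in duct than in urothelium, most of all Elf5 (14.19 against 10.49). Gata3 and Foxq1 were among those called against the mean of all 3 compartments. Gata3 had 13.38, 14.65 and 12.71 in urothelium and a mean of 14.13 in duct, and Foxq1 had 13.89, 14.86 and 12.83 against 13.99. Of the 3 grainyhead factors, Grhl3, which acts in terminal differentiation of umbrella cells, had the widest margin over duct (2.41 ± 0.55, adjusted p = 0.086), a margin that was not called.

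**Figure D3:**
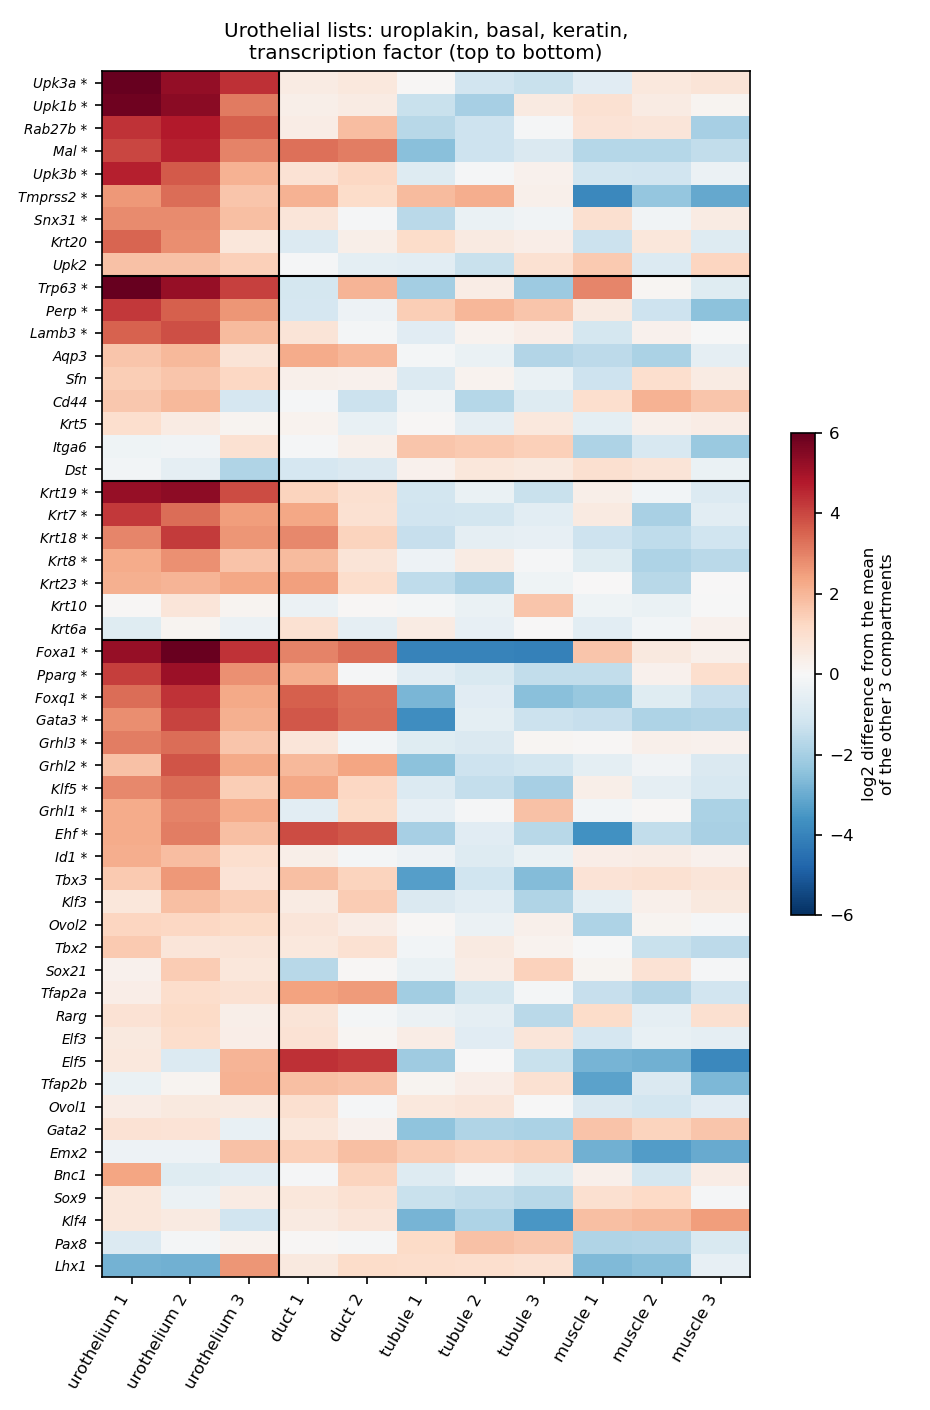
Log2 difference of each array from the mean of the other 3 compartments (colour, -6 to 6) for tested members of the uroplakin, basal, keratin and transcription factor lists, with called genes starred. The first 3 columns are urothelium, and the 2 columns beside them are duct, whose mean is above the urothelium mean for 13 of the 28 transcription factors, among them Elf5, Lhx1, Ehf, Emx2, Gata3 and Foxq1.

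Genes that seal and bind epithelial cells were higher in part. Against muscle alone 9 of 13 desmosome and 13 of 19 tight junction genes were called higher, and against duct alone 1 and 0 by limma (2 and 1 at an unadjusted p under 0.05 in either direction). Of all genes tested, 5.06% were called higher against muscle and 0.162% against duct. In the duct comparison 1636 of 13573 genes had an unadjusted p under 0.05 in limma. Against all 3 compartments, in the desmosome list 4 of 13 tested members were called higher and 0 lower (median 1.64): Perp, the desmosomal cadherin Dsc2 (3.14 ± 0.58), desmoplakin Dsp (1.95 ± 0.42) and periplakin Ppl (1.71 ± 0.40). Of 19 tight junction genes 6 were called higher and 0 lower (median 0.88), namely the claudins Cldn23, Cldn8 (3.37 ± 0.54), Cldn7 (2.57 ± 0.43), Cldn3 (2.29) and Cldn4 (2.12), and Marveld3 (1.96 ± 0.36). Of these, Dsc2, Dsp, Ppl and Marveld3 were not called without urothelium replicate 1 or without replicate 2 (adjusted p from 0.0594 to 0.195), nor Cldn7 without replicate 1 (0.0532). A general epithelial list had 12 of 24 tested members called higher and 0 lower (median 1.79), among them the cadherin Cdh1 (2.82 ± 0.37) and Esrp1, which directs epithelial splicing (3.10 ± 0.36). The median difference of that list was 4.01 against muscle, 1.32 against proximal tubule and 0.19 against duct, where 1 member (Krt19) was called. Of 21 tested mucosal surface and secreted genes 8 were called higher and 0 lower (median 1.03). They included annexin Anxa1 (2.48 ± 0.35), galectin Lgals3 (3.04), the cornified envelope gene Sprr1a (2.83) and Wfdc2, a secreted protease inhibitor (1.92), while the mucin Muc1 stood at -1.35 (adjusted p = 0.372).

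Among signalling ligands Shh, the hedgehog protein by which the epithelium acts on ureteral mesenchyme, had 13.39, 14.29 and 12.56 in urothelium. It had 15.39 and 14.93 in collecting duct and 6.05 to 10.19 in proximal tubule and muscle. The difference from the mean of the other compartments was 2.94 ± 0.69 (adjusted p = 0.043), and from muscle alone 5.78 ± 0.83 (adjusted p = 0.000811). Shh was the 1 member of 13 called higher, with 0 lower (median -0.20), and its call was lost without urothelium replicate 1 (adjusted p = 0.145) or 2 (0.218), and without either duct array (0.0832 and 0.101). Of its targets and effectors, the receptor and target Ptch1 had 13.74, 12.93 and 13.91 against a muscle mean of 15.57, a difference from muscle of -2.05 ± 0.48 (adjusted p = 0.0171). Hhip, a hedgehog-binding target, stood at 8.92, 6.58 and 6.59 against a muscle mean of 12.52 (-5.16 ± 0.69, adjusted p = 0.000468), and Gli2, a transcriptional effector, was lower than muscle by 2.02 ± 0.47 on the log2 scale (adjusted p = 0.0165). In urothelium the ligand was thus high and these 3 genes were below muscle, where 3 of the 13 were called lower and 2 higher (Shh and the co-receptor Cdon, 1.99 ± 0.42).

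Of 31 tested Wnt pathway genes 1 was called higher (1.66% over all genes tested) and 0 lower (median 0.06). This was the ligand Wnt4, at 12.56, 12.74 and 12.64 in urothelium against 12.13 and 11.39 in duct and a mean of 7.74 in muscle (2.99 ± 0.51, adjusted p = 0.00783, or 0.0515 without urothelium replicate 2). Wnt7b, a ligand of duct and urothelium, had 11.26, 11.69 and 11.08, and its difference of 1.10 ± 0.31 was not called (adjusted p = 0.0847). Wnt9b, a ureteric bud ligand, read 9.95, 7.73 and 10.33 against 12.80 in duct, and that pair was not called either (adjusted p = 0.0633). The receptors Fzd1 and Fzd7 were lower than in muscle by 1.98 ± 0.38 and 2.18 ± 0.41 on the log2 scale.

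In the BMP and TGF-beta list 2 of 29 tested members were called higher (1.66% over all genes tested) and 0 lower (median -0.15). The ligand Bmp2 had 9.89, 11.34 and 12.37 in urothelium against 6.47 to 9.58 in the other arrays (2.89 ± 0.66, adjusted p = 0.0388), and Id1, a target of BMP signalling, was the other. Bmp2 was highest in replicate 3, unlike the uroplakins, and was not called without replicate 2 (adjusted p = 0.159) or 3 (0.118). Bmp4, a ligand of the mesenchyme around the ureter, was lower than in muscle by 1.74 ± 0.43 on the log2 scale (adjusted p = 0.0238), and Bmp5 by 3.28 ± 0.71 (adjusted p = 0.0117). Of 23 FGF and EGF genes 0 were called higher and 2 lower (median 0.12): Fgf7, a mesenchymal growth factor for epithelia (-1.81 ± 0.43), and the receptor Fgfr4 (-1.73 ± 0.42). For each of these 1 compartment stood far above the rest, muscle at 12.00 for Fgf7 and proximal tubule at 13.56 for Fgfr4, and neither was called without urothelium replicate 1 (0.197 and 0.145) or 2 (0.139 and 0.25). Betacellulin, Btc, an EGF receptor ligand, was lower than in duct (-2.93, adjusted p = 0.0254) with 10.96, 10.97 and 10.84 in urothelium.

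Of 17 retinoic acid genes 2 were called higher and 0 lower (median 0.37): the receptor Rxra (1.36 ± 0.32) and Aldh1a7, an aldehyde dehydrogenase close in sequence to Aldh1a1 (2.17 ± 0.48), from which its probe set may not be told apart. Aldh1a3, a retinoic acid-producing enzyme of the duct, had 9.57, 8.24 and 10.45 in urothelium and 13.43 and 14.07 in duct (-4.33 against duct, adjusted p = 0.0185). Against muscle and proximal tubule it was called higher (2.61 and 2.82), so urothelium lay between. Jag2, a Notch ligand, was the 1 member called of 15 Notch genes (1.93 ± 0.44, adjusted p = 0.0374). By limma 0 of 10 Gdnf and Ret genes (3 at an unadjusted p under 0.05) and 0 of 30 ephrin, semaphorin and netrin genes (7) were called. Of all 13573 genes tested, 2.36% were called and 2176 had an unadjusted p under 0.05, so such small counts do not set these lists apart. Of 11 posterior Hox genes, 1 was called, Hoxd8 (1.69 ± 0.41). None of Rxra, Aldh1a7, Jag2 and Hoxd8 was called without urothelium replicate 1 (adjusted p from 0.0789 to 0.181) or 2 (0.16 to 0.217).

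Transport genes of the duct were shared in part. The sodium channel subunit Scnn1g had 12.56, 12.82 and 12.39 in urothelium, a mean of 12.63 in duct and 7.31 and 6.81 in proximal tubule and muscle (3.68 ± 0.53, adjusted p = 0.00278). Urothelium and duct did not differ beyond their spread in this gene (-0.04 ± 0.72). The potassium channel Kcnk1 (1.95 ± 0.42) and Fxyd3 were the other higher members of 22 tested, and the potassium channel Kcnj15 was lower (-2.00 ± 0.49). Aqp2, the vasopressin-regulated water channel of principal cells, had 7.93, 8.19 and 8.93 against 10.12 in duct (difference from all 3 compartments -0.91 ± 0.36, adjusted p = 0.237). Of 11 prostaglandin genes 2 were called higher, the phospholipase Pla2g4a (2.28 ± 0.38) and the prostaglandin transporter Slco2a1 (2.08 ± 0.49). Kcnk1, Kcnj15 and Slco2a1 lost their call without urothelium replicate 1 or 2 (adjusted p from 0.136 to 0.223).

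Of 24 xenobiotic and antioxidant enzymes 3 were called higher and 1 lower (median 0.48). The higher ones were the alcohol dehydrogenase Adh1 (14.82, 15.53 and 14.60, difference 2.57 ± 0.38) and the glutathione transferases Gsta4 (2.08 ± 0.35) and Gsto1 (1.93 ± 0.36). The sulfotransferase Sult1d1 was lower (-3.04 ± 0.41), with 6.53, 5.98 and 6.26 in urothelium against 12.57 in proximal tubule and 6.72 in muscle. Of 15 imprinted growth genes 2 were called higher, the growth factor Igf2 (1.44 ± 0.33) and Phlda2, a growth repressor of the placenta (1.82 ± 0.34). Without urothelium replicate 2 the calls of Igf2 (0.197), Phlda2 (0.112), Gsta4 (0.0606) and Gsto1 (0.0929) were lost. In the immediate early and heat shock list Fos and the small heat shock protein Hspb1 (1.69 ± 0.37) were called of 18, while Jun stood at -0.17 and Egr1 at 0.07, neither of them called, and the median was 0.34. Hspb1 was not called without urothelium replicate 1 (0.145) or 2 (0.173). Proliferation genes gave 0 calls of 33 by limma (6 at an unadjusted p under 0.05) with a median of 0.38, and 29 of the 33 had a difference above zero, where over all 13573 genes 6916 were above zero and 2176 had an unadjusted p under 0.05. Among them the cyclin Ccnd2 had 14.96, 16.34 and 13.99 (2.12 ± 0.59, adjusted p = 0.0832) and the replication licensing factor Cdc6 had 12.52, 12.26 and 11.46 (1.63 ± 0.44, adjusted p = 0.0756). The list's median was 0.93 against duct and -0.28 against muscle. Respiratory chain genes gave 0 calls of 28 by limma and 0 at an unadjusted p under 0.05 (median 0.25).

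Against the mean of the other compartments fewer genes were called lower than higher, and they were less well supported. The 12 called genes with the lowest differences among those without overlap (103 of all genes tested lay below the other 8 arrays with no overlap, 0.759%, and 29 of these were called, 0.214%) had differences of -2.67 to -2.06 and adjusted p from 0.000418 to 0.0474. Acss1, a mitochondrial acetyl-CoA synthetase, had 7.86, 7.42 and 8.10 in urothelium against 8.77 to 11.88 elsewhere (-2.67 ± 0.40, adjusted p = 0.00325). Ccn2, a matrix protein induced by TGF-beta and YAP signalling, had 10.12, 10.08 and 9.43 against 10.76 to 13.75, with muscle highest at a mean of 13.60 (-2.06 ± 0.33). Others were the tetraspanin Tspan18 (-2.61 ± 0.50), the BMP co-receptor Rgmb (-2.40 ± 0.55), the vesicle protein Syt2 (-2.38 ± 0.28), the semaphorin Sema6c (-2.29 ± 0.44), the lipoprotein receptor Vldlr (-2.21 ± 0.47), the phosphodiesterase Pde1c (-2.16 ± 0.52), the dynamin Dnm1 (-2.09 ± 0.46), Sgip1 (-2.48 ± 0.50) and Gpr155 (-2.26 ± 0.42).

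Itga5, a subunit of the fibronectin receptor, was the 1 gene (0.00737%) called lower than each other compartment, at 6.19, 6.34 and 6.05 against 8.13 to 9.44 (-2.53 ± 0.28, adjusted p = 0.000418). That value came from the probe set with the highest mean, and 2 further Itga5 probe sets past the filter differed by 0.26 and -0.22, so the gene's direction depends on the probe set. Pde1c behaved alike, with 3 further probe sets at 0.69, -0.54 and -0.67, and a second Dnm1 probe set stood at 0.11. Further probe sets past the filter for Sgip1 (-0.16) and Tspan18 (-0.71) kept the sign at a smaller size. Averaging a gene's probe sets lost 7 of the 12 lower genes and 0 of the 25 higher ones. Leaving out urothelium replicate 1 lost 7 of the 12, replicate 2 lost 6 and replicate 3 lost 2, and a collecting duct array lost 3 or 4.

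By absolute rank the brightest urothelium genes were shared by every compartment. The percentile of a gene is its rank by signal among the 18193 named genes on an array, averaged over the arrays of a compartment. The 12 brightest were Eef1a1, Nme2, Rps18, Tpt1, Rpl13a, Uqcrb, Rps7, Hmgn1, Akr1a1, Rps28, Hmgcs1 and Hspa8, mostly genes of translation and basic metabolism, at percentiles of 99.9 or more in urothelium and 99.8 or more in the mean of the others, and 0 of them were called or had an unadjusted p under 0.05 (limma). Of 828 named genes at the 95th percentile or above, 26 were called higher. The brightest of these was Krt8, at percentile 99.9 in urothelium and 95.2 in the rest, with 16.71, 17.23 and 16.21 in urothelium and 16.41 and 15.28 in duct. Siva1 (98.8 against 93.2) and Ermp1 (98.4 against 89.5), picked out after their values were seen, came next. Mal (98.2 against 69.5), Krt18 (98.2 against 77.3), Foxa1 (98.1 against 54.3) and Tspan8 (98.1 against 60.4) followed. Over all 225 higher genes the median percentile was 77.5 in urothelium and 47.5 in the other compartments, and over the 96 lower genes it was 23.3 and 50.5. The direction of both shifts follows from how these genes were chosen on the same arrays. Rank also picked out Ttr, the thyroid hormone carrier transthyretin, with 11.40, 12.79 and 9.46 in urothelium, whose difference was called (4.04 ± 0.81, adjusted p = 0.0188) but whose replicate 3 overlapped the 5.92 to 10.13 of the other arrays, and its call was lost without urothelium replicate 1 (0.0881) or 2 (0.137).

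Genes of the neighbouring tissue were present in the urothelium arrays at levels between the compartments. The summed signal of 22 smooth muscle contractile genes was 185707, 90720 and 86508 in urothelium replicates 1 to 3, against 643626 to 829582 in muscle, 25303 to 47409 in duct and 22900 to 35749 in proximal tubule. Acta2, the smooth muscle actin, had 15.56, 14.82 and 13.09 in urothelium, below muscle (17.21) by 2.73 ± 0.56 and above proximal tubule (11.83) by 2.65. Of the 22, 0 were called against the mean of the other 3 by limma (3 at an unadjusted p under 0.05, with Myl9 at an adjusted p of 0.157), but 14 were called lower against muscle and 12 higher against proximal tubule. Tbx18, the ureteral mesenchyme factor, showed the same order, with 12.46, 12.35 and 11.49 in urothelium, 15.79 in muscle, 8.77 in duct and 7.95 in proximal tubule. The part of muscle or mesenchyme RNA in the urothelium values was not tested.

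The 19 ureteric bud and collecting duct genes summed to 34627 and 32768 in replicates 1 and 2 and to 86415 in replicate 3, against 172330 and 185152 in the duct arrays. The uroplakin list ran the other way, at 127952, 158311 and 53824. The 15 nephron progenitor and stroma genes summed to 38307, 9740 and 49851, against 79679 to 105780 in muscle, 26568 to 43935 in duct and 19430 to 37307 in proximal tubule. In this list Gdnf, the ligand of Ret, had 6.48, 6.56 and 10.67 and the progenitor factor Sall1 9.87, 9.28 and 12.91 (duct means of 10.43 and 11.53, tubule means of 9.21 and 13.02). Pdgfra had 14.51, 11.98 and 14.42 against a muscle mean of 15.94, and Osr1, Ntn1 and Dlk1 were lowest in replicate 3. The 25 extracellular matrix genes summed to 279722, 139002 and 305172. By summed signal, in which bright genes weigh most, replicate 3 was thus lowest in uroplakins and highest in duct, nephron progenitor and stroma, and matrix genes. Replicate 2 was lowest in these last 3 lists. By the median log2 signal of the matrix genes replicate 1 was highest instead (12.78, 10.80 and 12.64). For the uroplakin, duct, and progenitor and stroma lists the median put replicate 3 in the same place as the sum. The part of duct, progenitor, stroma or matrix tissue in the urothelium values was not tested. Proximal tubule genes summed to 21411, 8474 and 22450 against 292271 to 470290 in tubule, and 4 of 22 tested were called lower, among them the cystine transporter subunit Slc3a1 (-2.15 ± 0.39) and the sulfate transporter Slc13a1 (-2.19 ± 0.49), both lost without urothelium replicate 2 (0.0929 and 0.188). By limma 0 of 14 endothelial and 0 of 9 leukocyte genes were called, against 2.36% of all genes tested. In these lists 0 genes had an unadjusted p under 0.05, against 2176 of all 13573. Endothelial genes summed to 11583, 7486 and 20432 and leukocyte genes to 7018, 3962 and 6116, within or near the range of the other compartments. Of 6 erythroid genes 1, the factor Klf1, was lower (-1.98 ± 0.42, not called without urothelium replicate 2 at 0.14 or 3 at 0.0767).

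**Figure D4:**
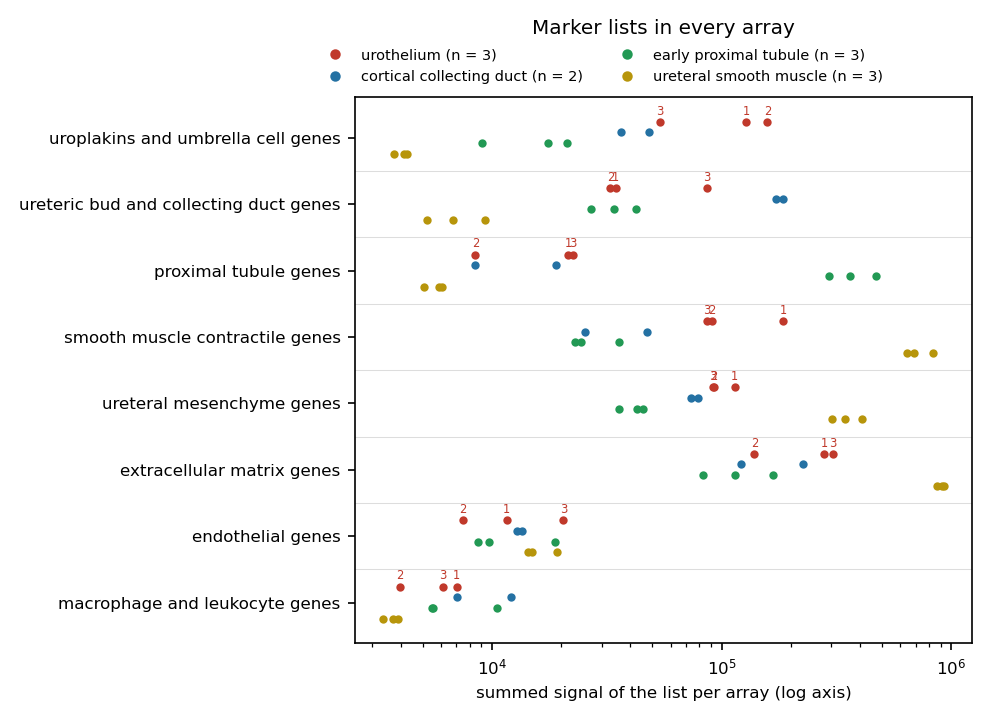
Summed signal (log axis) of 8 marker lists in every array, coloured by compartment, with the urothelium replicates numbered. Urothelium lies between muscle and the other compartments for contractile genes (86508 to 185707), and replicate 3 lies apart from replicates 1 and 2 for uroplakin and duct genes.

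Some genes differed widely among the urothelium pools. Calb1, the calcium-binding calbindin of the distal nephron and duct, had 10.44, 7.13 and 14.35 in replicates 1 to 3, where replicate 3 was close to the duct mean of 15.01. Lhx1, a homeobox gene of ureteric bud and early nephron, had 6.04, 6.0 and 11.55, with 9.74 in duct. The anion exchanger Slc26a7 had 11.20, 6.71 and 13.90, the peptidase Enpep 12.42, 7.64 and 13.44, and the collagen Col25a1 10.94, 7.39 and 13.17. In these 3 genes, as in the ligand Wnt5a (12.56, 8.34 and 12.85) and the Wnt antagonist Sfrp1 (12.29, 8.09 and 12.34), replicate 2 stood alone at the low end. Xist, the RNA of the inactive X chromosome, had 8.89, 16.63 and 8.22, high in replicate 2 alone, and the proteasome subunit Psmd6 had 9.11, 14.80 and 11.04. Of the 8 genes with the most spread 0 were called by limma, and 2 had an unadjusted p under 0.05.

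**Figure D5:**
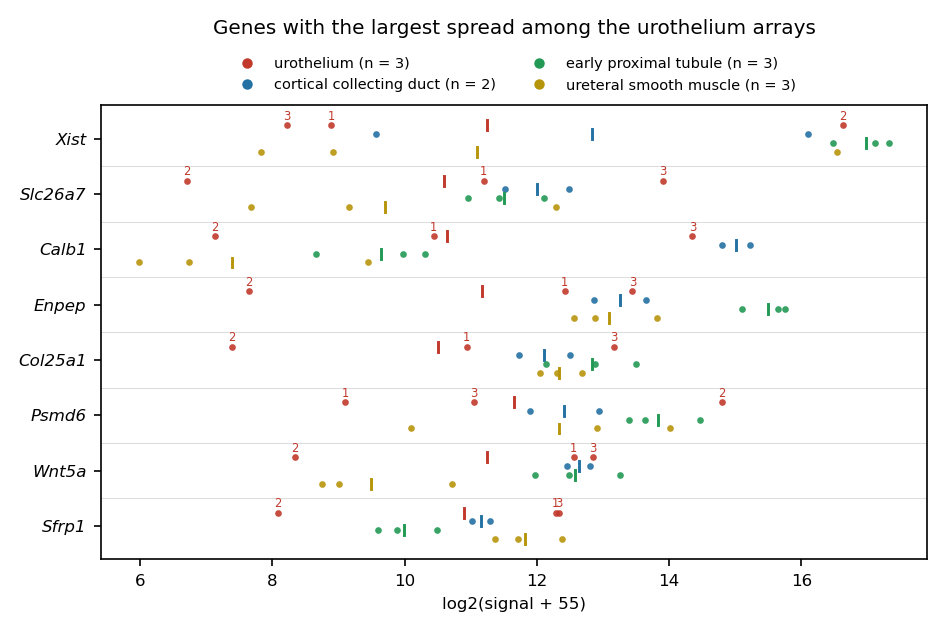
Log2(signal + 55) of the 8 genes with the largest spread among the urothelium arrays (standard deviation of 2.44 to 4.67), with urothelium replicates numbered, the other arrays coloured by compartment and compartment means as vertical ticks. Replicate 2 is the lowest of the 3 in Slc26a7, Calb1, Enpep, Col25a1, Wnt5a and Sfrp1 and the highest in Xist and Psmd6.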

How the data were processed

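The authors deposited 1 table of linear intensity signals for 45101 probe sets, for which the submitters' processing notes name GCOS, Affymetrix's software, without a version. Every array had a 2% trimmed mean of 1500, so this scaling was kept. Of the probe sets, 64 were controls, 34945 had 1 gene symbol, 932 had several and 9160 are unnamed here. Entrez identifiers of 34741 matched RefSeq (GRCm38.p6), with 0 symbols changed. Each gene was read from its probe set with the highest mean. The pseudocount of 55 is the 20th percentile of the table, and it makes folds of dim genes smaller. The limma fit (3.58.1, R 4.3.3) had 7 residual and 6.40 prior degrees of freedom, and was tested on simulated data. Replicate numbers follow accession order and pair nothing. The members, lists and tests were chosen with earlier results of these data known. The rule named the 25 highest and 12 lowest called genes without overlap, the 10 farthest above and up to 5 farthest below every compartment, up to 4 members of each list by moderated t (every tested member for the urothelial and signalling lists), the 12 highest ranked genes, the largest rank rises and the 8 with most spread in urothelium, skipping clone names. Further list members in the text (Cldn3, Cldn4, Lgals3, Sprr1a, Wfdc2, Muc1, Jun, Egr1, Sall1, Pdgfra, Osr1, Ntn1 and Dlk1) were chosen after their values were seen. Alternatives were quantile normalization, pseudocounts of 12 and 190, no filter or one at the 75th percentile, the mean of probe sets, no x, s and a probe sets, eBayes with trend and robust options, no minimum fold, label batch as a fixed or random block, and each array left out. The number of arrays limits the precision. Sequences were matched by symbol with Python 3.11.15.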

Additional observations from a re-analysis of the deposited data

How the results depend on the processing

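Of the 90 named genes that were called, none changed the sign of its difference from the mean of the other compartments under any alternative that could fit it. Ranks and summed signals were not recomputed. The count of 321 called genes was 201 with the lower pseudocount and 0 with label batch as a fixed block, where 919 genes had an unadjusted p under 0.05 in limma, and the other whole-data alternatives gave 243 to 445. Leaving out 1 array gave 98 to 399. The 13 genes higher in each pair became 8 with the lower and 32 with the higher pseudocount and 0 with the fixed block, and 0 to 43 with 1 array left out. The 1 gene lower in each pair became 2 with the lower pseudocount and 0 with the mean of probe sets, with trend and robust options and with the fixed block, and 0 to 5 with 1 array left out. Of these 90 genes the fixed block lost 90, the lower pseudocount 26, the mean of probe sets 21, no filter 12 and quantile normalization 10, and a left-out array 8 to 42. No paired analysis was possible because replicate numbers only follow accession order. The fits that match arrays on label batch are those with the blocks. Brightness of single probe sets, 3 urothelium pools and label batches that urothelium shares with muscle only limit these results.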
